A study of Mus musculus with 30 samples.

Results

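The libraries compared here are the 6 from mouse tibialis anterior muscle taken 7 days after volumetric muscle loss and the 6 from uninjured tibialis anterior muscle, chosen by their titles, out of 30 libraries in the series. Each set of 6 holds 3 male and 3 female libraries. The study sequenced total RNA of this hindlimb muscle in both sexes, uninjured or 4, 7, 11 or 15 days after injury, with 3 libraries in each of 10 groups of sex and time. Its title names the wound healing cascade as the subject. The labels give no strain, age, treatment beside the injury, size of the defect or number of animals behind a library, and they do not say whether injured and uninjured muscles came from the same mice. P-values therefore measure the spread between libraries, which may be technical. That spread was estimated over all 30 libraries together, including those of the other days.

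Volumetric muscle loss is the removal of a piece of muscle too large to regrow unaided. After a smaller injury, satellite cells, the stem cells of muscle, divide, differentiate and fuse into new fibres that first make embryonic myosins, while macrophages clear debris and fibroblasts lay down a temporary matrix. After volumetric loss the defect is known to fill largely with fibrous tissue. A day 7 sample of the whole muscle holds surviving fibres, regenerating fibres, inflammatory cells, fibroblasts, vessels and nerve together.

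Day 7 libraries held 20674040 to 52483561 counts and uninjured libraries 40757683 to 48860849. The share of the counts held by the top 10 genes was 6.61 to 19.2% at day 7, against 25.7 to 32.3% in uninjured muscle, and the mean scaling factor of the trimmed mean of M-values (TMM) was 1.19 at day 7 and 0.527 in uninjured muscle. Replicates differed far beyond counting error, with a lowest chi-square per degree of freedom of 28. Along the first principal component of the 12 libraries, which held 75.2% of the variance, day 7 and uninjured libraries lay apart. As for the tissue label, muscle creatine kinase Ckm stood at 347 to 6257 CPM (counts scaled to a common library total) at day 7 and 19787 to 37096 CPM in uninjured muscle. The skin keratins Krt5, Krt14 and Krt1 were listed at 0 in all 12 libraries. So were the globins Hba-a1, Hba-a2, Hbb-bs and Hbb-bt, so a listed 0 may not mean that a transcript was absent. Xist and Y-linked transcripts matched the sex label in all 12.

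At day 7, 7127 of 17136 tested genes rose against uninjured muscle (41.6%) and 5132 fell (29.9%), together 71.5%, in edgeR's quasi-likelihood test at an adjusted p under 0.05. In 4274 genes (24.9%) all 6 day 7 libraries lay above all 6 uninjured libraries, and in 3299 genes (19.3%) all 6 lay below. Fold changes are log2 values of day 7 over uninjured muscle ± standard error. Levels are CPM after TMM scaling, given as the lowest, the median and the highest of 6 libraries. The median fold change of all tested genes was 0.24, and it was 1.42 when only library size was used for scaling, so the gene groups below are read against that background. With library size alone 73.9% of the genes rose and 7.07% fell, so many of the falls given below depend on the scaling, and the counts of such lists are given on both scales. In bulk tissue, fewer cells of a type and less RNA per cell cannot be told apart.

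**Figure D1:**
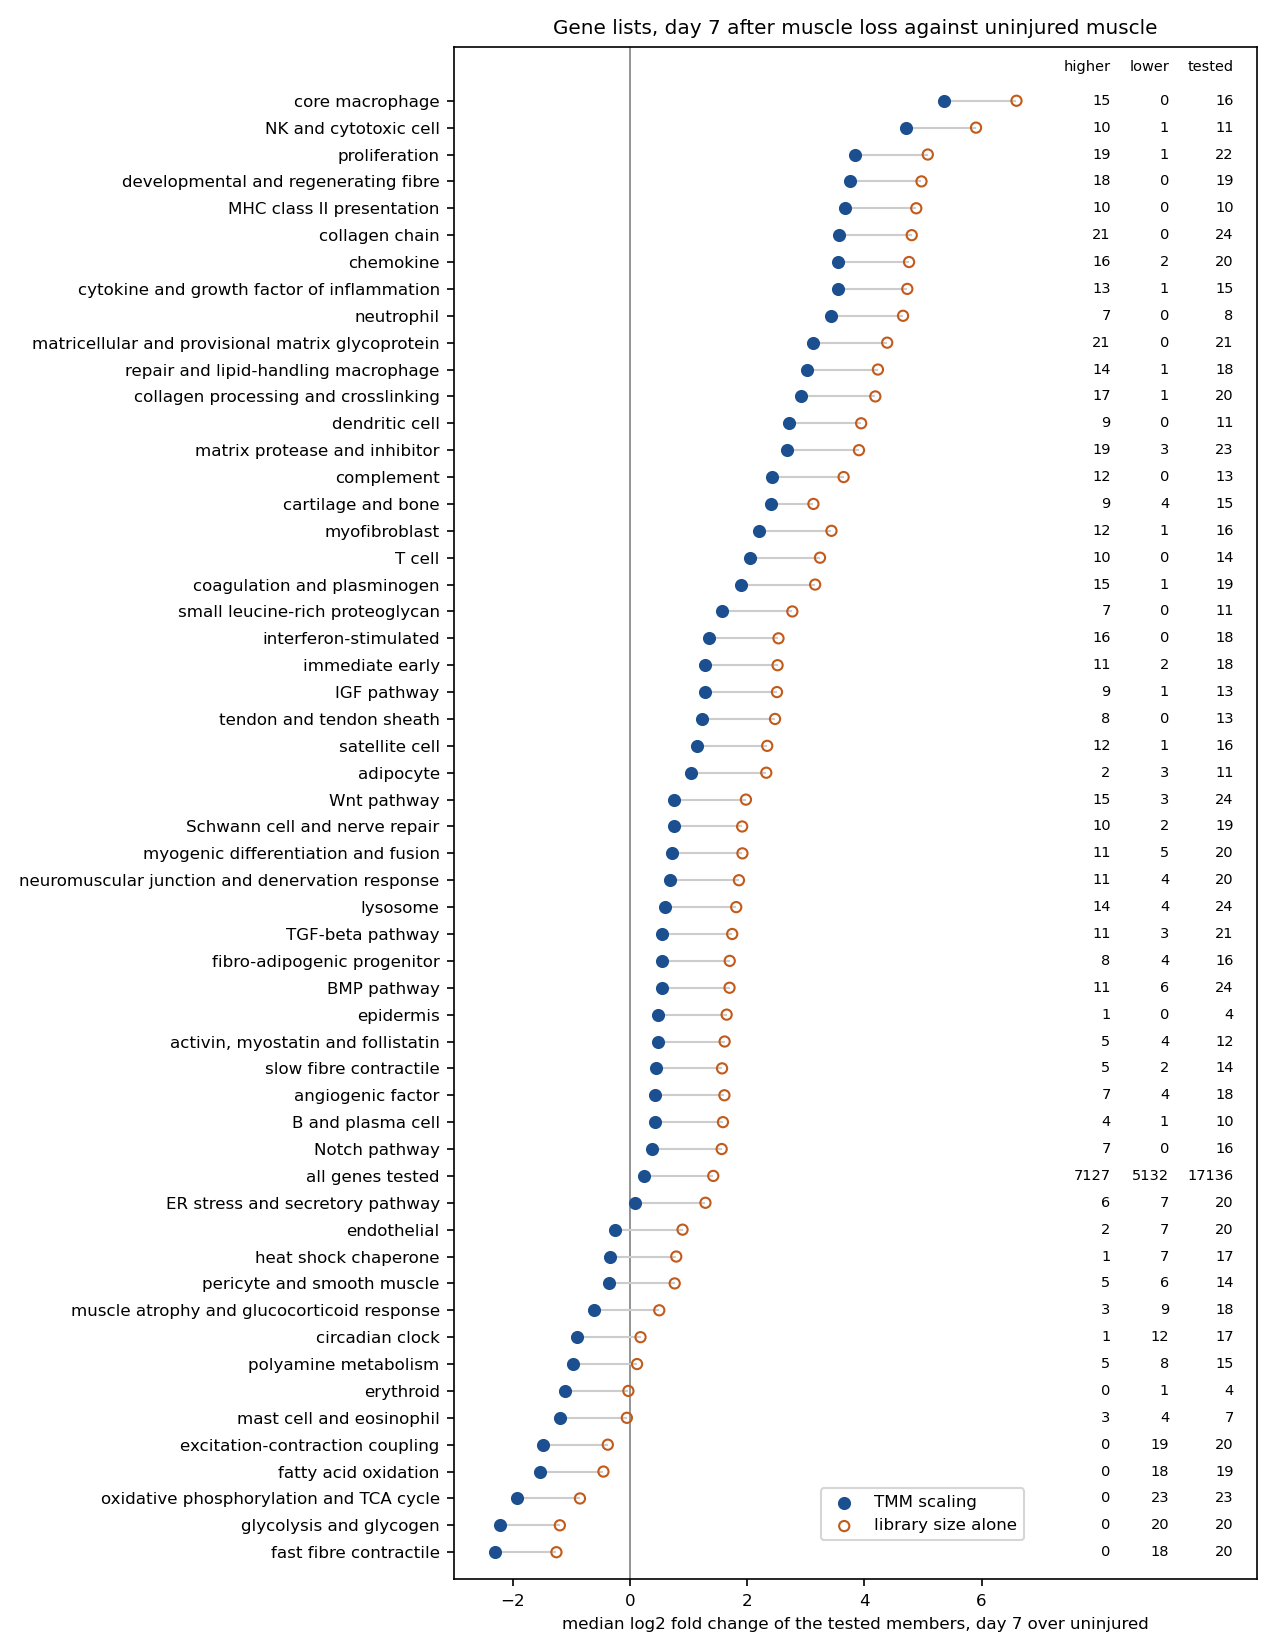
Median log2 fold change of the tested members of 54 gene lists and of all tested genes, day 7 over uninjured, with TMM scaling (filled) and with library size alone (open); the columns at the right give how many members were called higher, called lower and tested. Core macrophage, NK and cytotoxic cell, proliferation and developmental fibre lists stand at the top, and the fast fibre, excitation-contraction coupling, glycolysis, oxidative phosphorylation and fatty acid oxidation lists at the bottom on both scales.

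Muscle stem cell genes were mostly higher at day 7, and differentiation and fusion genes held the most extreme rises. Of 16 tested satellite cell genes 12 rose and 1 fell, with a median fold change of 1.14 (with library size alone 15 rose and 0 fell), and of 20 differentiation and fusion genes 11 rose and 5 fell, with a median of 0.72 (with library size alone 15 rose and 2 fell). Pax7, the transcription factor that marks satellite cells, had 1.98, 3.29 and 5.66 CPM at day 7, against 0.597, 1.79 and 3.57 CPM in uninjured muscle. The groups overlapped, and the rise was 1.03 ± 0.32 (adjusted p = 0.00617). Myod1, the regulator that commits these cells to the muscle lineage, reached 44.9, 56.7 and 79.9 CPM at day 7, against 28.8, 32.6 and 44.1 CPM without injury. Its day 7 libraries all lay above the uninjured ones, with a change of 0.82 ± 0.25 (adjusted p = 0.00459).

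Myog, which drives the step to differentiated myocytes, stood at 171, 303 and 595 CPM at day 7, against 6.29, 8.42 and 13.3 CPM in uninjured muscle. No libraries overlapped, and the change was 5.15 ± 0.39 (adjusted p = 9.07e-11). Mymk and Mymx encode the membrane proteins myomaker and myomixer, which carry out myoblast fusion. Mymk had 83.5, 106 and 284 CPM at day 7 and 0, 0.118 and 0.352 CPM in uninjured muscle, a pooled ratio of 1172-fold (95% counting interval 617 to 2564). Mymx had 16.7, 32.2 and 73.3 CPM at day 7, whereas all 6 uninjured libraries were at 0. Against a floor of 6 counts, which is 3 read pairs, over the uninjured group, Mymx was at least 950.0-fold higher at day 7. Both fusion genes were below their day 4 level, with log2 changes against day 4 of -1.42 for Mymk and -1.08 for Mymx (adjusted p = 0.00856 and 0.0315).

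Other satellite cell receptors also rose. Megf10, a receptor of satellite cells, had 9.15, 17.2 and 32 CPM at day 7, against 0.44, 1.47 and 1.68 CPM in uninjured muscle, with a change of 3.96 ± 0.33 (adjusted p = 3.05e-10). Fgfr4, a fibroblast growth factor receptor of differentiating myoblasts, had 29.1, 42 and 90.8 CPM, against 4.04, 5.49 and 7.59 CPM without injury, with a change of 3.15 ± 0.23 (adjusted p = 5.72e-11). In both genes the groups were fully separated. The member that fell was Cdh15, which encodes M-cadherin, with 19.9, 33.5 and 41.5 CPM at day 7 and 38.6, 50.7 and 69.6 CPM in uninjured muscle (change -0.63 ± 0.17, adjusted p = 0.00151), but with library size alone it was called higher, at 0.56. Among the differentiation genes, Mef2c, Mef2d, Jam2, Tmem182 and Stab2 fell, with changes of -0.80, -0.96, -0.73, -2.33 and -1.99, of which Mef2c, Mef2d and Jam2 were not called with library size alone.

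Regenerating fibres make isoforms that adult fast fibres do not. Of 19 tested genes of this kind 18 rose and none fell, with a median fold change of 3.75 with TMM and 4.97 with library size alone. Myh3, embryonic myosin heavy chain, had 608, 887 and 2013 CPM at day 7, against 1.53, 4.03 and 8.04 CPM in uninjured muscle, a change of 8.02 ± 0.62 (adjusted p = 1.40e-10). Myh8, perinatal myosin heavy chain, had 515, 759 and 1704 CPM at day 7, against 11.4, 14.2 and 20.4 CPM in uninjured muscle, a change of 5.91 ± 0.49 (adjusted p = 3.17e-10). All day 7 libraries lay above all uninjured ones for both. Sln, sarcolipin, which slows the calcium pump of the sarcoplasmic reticulum, had 184, 242 and 659 CPM at day 7 and 0.382, 2.16 and 3.86 CPM in uninjured muscle, again with no overlap (change 7.41 ± 0.57, adjusted p = 1.28e-10). The member that did not pass was Actc1, cardiac alpha-actin, with 242, 577 and 1176 CPM at day 7 and 509, 868 and 3475 CPM in uninjured muscle (change -0.85 ± 0.40, adjusted p = 0.0592). Myosin heavy chains and sarcomeric actins are close paralogs, and how the counting treated reads shared between them is not given in the sources used here, so their split is uncertain.

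The promoter sequences of 3 of these genes are shown because their transcripts rose together at day 7, by 8.14 for Chrng, 8.02 for Myh3 and 5.15 for Myog. They are the 250 bases before the start of the gene in RefSeq, build GRCm38.p6, plus strand, at chr1:87205561-87205810 (Chrng), chr11:67078050-67078299 (Myh3) and chr1:134289754-134290003 (Myog). Capitals mark every CANNTG, the E-box that myogenic regulators bind, which reads the same on both strands.
Chrng: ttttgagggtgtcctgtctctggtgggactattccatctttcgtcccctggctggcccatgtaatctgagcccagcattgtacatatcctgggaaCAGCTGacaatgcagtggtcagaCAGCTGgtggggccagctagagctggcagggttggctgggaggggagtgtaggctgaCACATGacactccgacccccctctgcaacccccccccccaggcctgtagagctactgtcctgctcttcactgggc
Myh3: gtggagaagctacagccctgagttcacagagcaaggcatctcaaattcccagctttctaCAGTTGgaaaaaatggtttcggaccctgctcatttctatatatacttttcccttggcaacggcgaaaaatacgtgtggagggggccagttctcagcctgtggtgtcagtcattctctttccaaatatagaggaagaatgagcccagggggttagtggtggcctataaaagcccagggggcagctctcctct
Myog: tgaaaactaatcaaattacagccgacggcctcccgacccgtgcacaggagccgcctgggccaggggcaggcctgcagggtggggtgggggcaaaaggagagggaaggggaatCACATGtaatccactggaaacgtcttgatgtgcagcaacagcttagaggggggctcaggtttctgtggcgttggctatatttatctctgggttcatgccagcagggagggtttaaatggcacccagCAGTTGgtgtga
The Chrng window holds 3 such matches, of which 2 read CAGCTG and begin 155 and 132 bases before the start. The Myog window holds 2, beginning 138 and 12 bases before the start, and the Myh3 window 1, beginning 191 bases before it. Of 32851 promoters of this length, 66.2% hold a CANNTG and 13% a CAGCTG. The matches are a description of these letters, and the counts do not bear on what binds there.

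Cell division genes were far above uninjured muscle. Of 22 tested proliferation genes 19 rose and 1 fell, with a median fold change of 3.84. Mki67, the marker of cycling cells, had 34.8, 70.5 and 121 CPM at day 7, against 0, 0.601 and 1.68 CPM in uninjured muscle, with no overlap (change 7.06 ± 0.44, adjusted p = 8.88e-12). Ccnb1, the cyclin of entry into mitosis, had 3.4, 6.37 and 20.6 CPM at day 7, against 0, 0.0417 and 0.0919 CPM, a pooled ratio of 229-fold (95% counting interval 78.1 to 1111). Cenpf, a kinetochore protein, had 4.68, 8.23 and 18.2 CPM at day 7, against 0, 0.0382 and 0.0886 CPM, a pooled ratio of 269-fold (95% counting interval 91.9 to 1306). In all 3 genes the day 7 libraries lay above every uninjured one. The kinase gene Aurka fell, with a change of -1.20 ± 0.22, a call that library size alone did not give, and the replication genes Mcm2 and Pcna did not pass the test, at 0.08 ± 0.21 and 0.01 ± 0.24.

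The adult fast fibre programme was lower at day 7. None of the 20 tested fast fibre contractile genes rose and 18 fell, with a median fold change of -2.30 with TMM and -1.26 with library size alone. Myh4, the fastest myosin heavy chain and the main one of this muscle, had 3682, 11425 and 21812 CPM at day 7, against 65719, 82722 and 109166 CPM in uninjured muscle (change -2.79 ± 0.49, adjusted p = 1.80e-05). Ckm, muscle creatine kinase, had 347, 2019 and 6257 CPM at day 7, against 19787, 29424 and 37096 CPM (change -3.33 ± 0.53, adjusted p = 5.27e-06). Pvalb, parvalbumin, the calcium buffer of fast fibres, had 1183, 6062 and 13371 CPM, against 32103, 40450.5 and 50585 CPM (change -2.52 ± 0.58, adjusted p = 4.50e-04). For these genes every day 7 library lay below every uninjured one, and the day 7 libraries spread over a far wider fold range than the uninjured ones. Myh2, the myosin of the less fast oxidative fibres, and the slow light chain Myl3 did not pass, with changes of -0.14 ± 0.59 and -0.74 ± 0.70. Of 14 slow fibre genes 5 rose and 2 fell, the lower ones being myoglobin Mb (-1.48 ± 0.51) and Mybpc1 (-1.07 ± 0.34), neither of which was called with library size alone. Those that rose most were the slow troponins Tnni1 (5.63 ± 0.66), Tnnc1 (5.07 ± 0.59) and Tnnt1 (4.50 ± 0.49), while slow myosin Myh7 did not pass, at 1.21 ± 0.70 (adjusted p = 0.125).

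**Figure D2:**
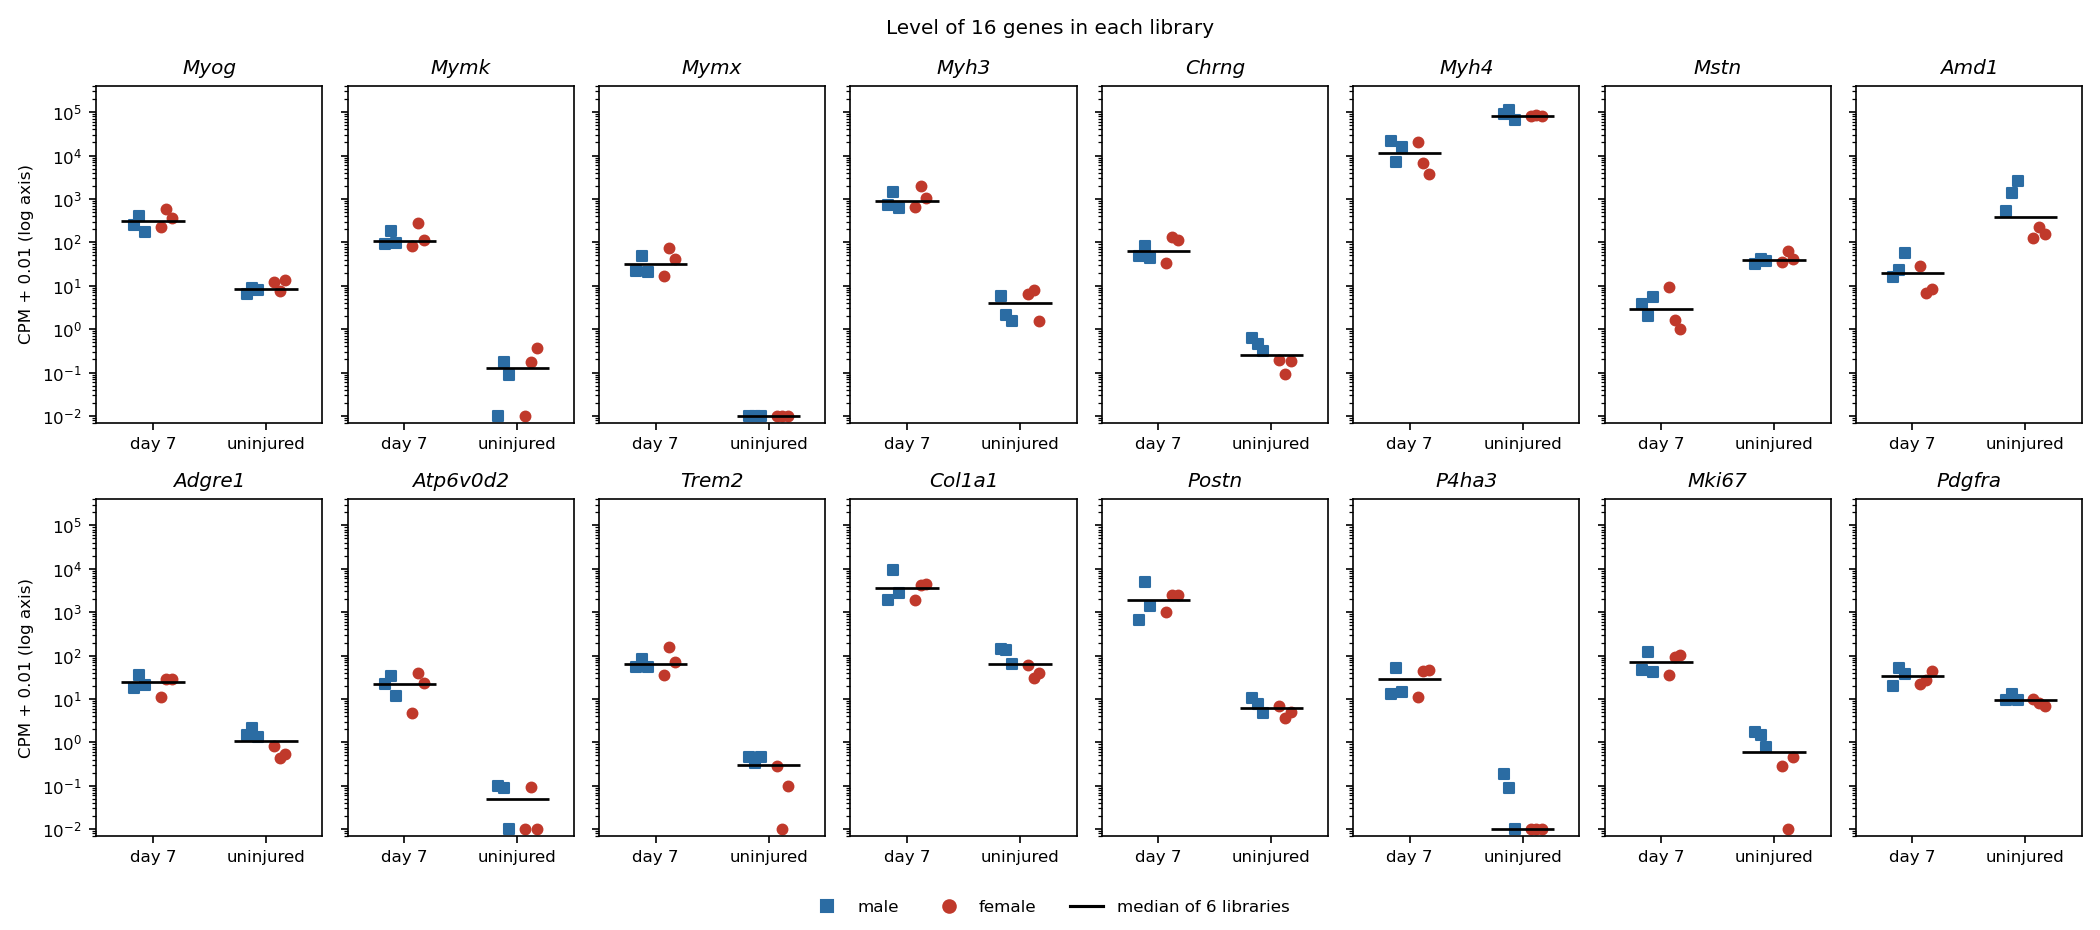
Levels of 16 genes in each of the 12 libraries as CPM + 0.01 on a log axis, day 7 at the left of each panel and uninjured at the right, males as squares, females as circles, bars at the median of 6 libraries. In all 16 panels the day 7 libraries lie wholly above (13 genes) or wholly below (Myh4, Mstn and Amd1) the uninjured ones.

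Calcium release and energy metabolism fell with the contractile genes. Of 20 excitation-contraction coupling genes 19 fell (median -1.48), of 20 glycolysis and glycogen genes 20 fell (median -2.23), and of 23 oxidative phosphorylation and TCA cycle genes 23 fell (median -1.92). Fat burning followed, with 18 of 19 members lower (median -1.53), and in these 4 lists none rose. With library size alone the medians were -0.38, -1.20, -0.85 and -0.45 in the same order, against 1.42 for all genes, and 9, 18, 21 and 8 members fell, with 1 fatty acid oxidation gene higher. Jph2, a junctophilin that holds the calcium release unit together, had 102, 226 and 531 CPM at day 7, against 1376, 1766 and 2334 CPM (change -2.70 ± 0.32, adjusted p = 5.74e-08). Ldha, lactate dehydrogenase, had 131, 856 and 2234 CPM, against 7003, 8293 and 9760.2 CPM (change -2.92 ± 0.49, adjusted p = 1.02e-05). Cox5a, a subunit of cytochrome c oxidase, had 24.6, 163 and 616 CPM, against 1379, 1912 and 2097 CPM (change -2.72 ± 0.53, adjusted p = 6.45e-05). In each the groups were fully separated. In the glycolysis list the changes ran from -2.93 (Pgk1, phosphoglycerate kinase) to -1.5 ± 0.21 (Gpi1, glucose phosphate isomerase). The exceptions in the other lists were the chloride channel Clcn1 and the carnitine transferase Cpt1b, which did not pass (-0.77 ± 0.49 and -0.05 ± 0.59).

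Among genes at a mean of at least 5 CPM whose groups did not overlap, with predicted genes passed over, Odf3l2 had the largest fall, with 0, 0.125 and 1.2 CPM at day 7, against 6.87, 15.9 and 23.9 CPM in uninjured muscle (change -6.36 ± 0.82, adjusted p = 2.52e-07). Amd1, the decarboxylase that supplies polyamine synthesis, had 6.81, 19.4 and 57.5 CPM, against 129, 381 and 2579 CPM (change -4.54 ± 0.44, adjusted p = 3.20e-09). Its uninjured level itself differed between libraries, at 536, 1354 and 2579 CPM in the 3 males and 129, 226 and 159 CPM in the 3 females, and Amd2 is a near-identical copy, so the split of their reads is uncertain. Smox, spermine oxidase, had 26, 50.7 and 75.8 CPM, against 475, 742 and 1495 CPM (change -4.16 ± 0.29, adjusted p = 2.56e-11). For Odf3l2, Amd1 and Smox every day 7 library lay below every uninjured one. Of 15 polyamine genes 8 fell and 5 rose. The list median was -0.97 with TMM and 0.12 with library size alone, so its sign depended on the scaling, and with library size alone 7 rose and 6 fell. Odc1, the entry enzyme of the pathway, fell, with a change of -1.37 ± 0.24 that was not called with library size alone, and Sat1, which starts polyamine breakdown, rose by 1.94 ± 0.21.

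Glycogen regulators were among the 10 largest falls chosen in this way. Epm2a, laforin, a glycogen phosphatase, had 0.39, 0.883 and 3.38 CPM at day 7, against 5.32, 17.5 and 46.7 CPM in uninjured muscle (change -4.20 ± 0.53, adjusted p = 1.86e-07). Ppp1r3c, which targets a protein phosphatase to glycogen, had 6.85, 24.1 and 63.9 CPM, against 254, 338 and 493 CPM (change -3.48 ± 0.54, adjusted p = 3.78e-06). Mstn, myostatin, the secreted inhibitor of muscle growth, had 0.998, 2.94 and 9.39 CPM, against 31.3, 38.8 and 63.1 CPM (change -3.43 ± 0.46, adjusted p = 3.82e-07). All 3 were lower in every day 7 library than in any uninjured one. The other members of the top 10 were Tspan8 (-3.99 ± 0.62), Phospho1 (-3.82 ± 0.50), the carboxylesterase Ces1d (-3.49 ± 0.77) and the fast myosin binding protein Mybpc2 (-3.40 ± 0.62).

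Genes of muscle wasting mostly stood lower or did not pass with TMM, a picture that turned with the scaling. Of 18 atrophy and glucocorticoid response genes 9 fell and 3 rose, with a median of -0.62 with TMM but 0.50 with library size alone, where 9 rose and 6 fell. The ubiquitin ligases Fbxo32 and Trim63 changed by -1.67 ± 0.36 and -1.26 ± 0.28 (adjusted p = 1.90e-04 and 2.72e-04), and library size alone called neither. Klf15, a glucocorticoid-induced factor, had 7.62, 19.1 and 45.7 CPM at day 7, against 73.5, 93.9 and 134 CPM (change -2.05 ± 0.45, adjusted p = 2.61e-04). The risen members were the metallothioneins Mt2 (3.74 ± 0.44) and Mt1 (1.34 ± 0.31) and Gadd45a (0.72 ± 0.33). Of 17 circadian clock genes 12 fell and 1 rose (Npas2, 2.22 ± 0.40), with a median of -0.91 with TMM and 0.18 with library size alone, where 6 rose and 2 fell. The labels do not give the hour of collection.

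At the neuromuscular junction the fetal subunit of the acetylcholine receptor rose and the adult one was not called, a difference between subunits that was not itself tested. Chrng, the fetal gamma subunit, had 33.9, 64.1 and 134 CPM at day 7, against 0.0833, 0.245 and 0.62 CPM in uninjured muscle, with no overlap (change 8.14 ± 0.41, adjusted p = 3.83e-13). Chrne, the epsilon subunit that replaces it in the adult, had 20.5, 45.1 and 66.7 CPM at day 7, against 27, 44.7 and 117 CPM, with overlapping groups and no call (change -0.27 ± 0.44, adjusted p = 0.594). Against day 4, whose 6 libraries had 0.209, 8.87 and 12.2 CPM, Chrne was higher at day 7 by 2.47 ± 0.47 (adjusted p = 5.68e-04), and Chrng was lower, with a change of -1.44 ± 0.28 (adjusted p = 6.19e-04). The alpha, beta and delta subunits Chrna1, Chrnb1 and Chrnd rose over uninjured muscle by 2.10 ± 0.34, 1.60 ± 0.22 and 3.82 ± 0.34. Rapsn, which clusters the receptor, fell, with a change of -1.54 ± 0.18. Over the whole list of 20 genes 11 rose and 4 fell (Dach2, Rapsn, Ufsp1 and Etv5), with a median of 0.68, and with library size alone 16 rose and 1 fell.

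Among nerve genes, some trophic factors and repair genes rose, while the myelin genes Mbp and Prx fell with TMM and were not called with library size alone. Of 19 Schwann cell and nerve repair genes 10 rose and 2 fell, and with library size alone 15 rose and none fell. Gdnf, a survival factor of motor neurons, had 2.63, 3.91 and 4.27 CPM at day 7, against 0.352, 0.865 and 2.17 CPM (change 1.78 ± 0.39, adjusted p = 2.46e-04), and its groups did not overlap. Artn, artemin, of the same family, had 0.644, 1.25 and 4.76 CPM, against 0, 0.171 and 0.321 CPM (change 3.46 ± 0.51, adjusted p = 1.91e-06), also without overlap. Gap43, a protein of growing axons, rose by 2.60 ± 0.45. The changes of Mbp and Prx were -1.02 ± 0.38 and -1.22 ± 0.36 with TMM, and 0.07 and -0.11 with library size alone. Ngfr, the receptor of repair Schwann cells, had 1.84, 3.21 and 4.52 CPM at day 7 and 2.25, 3.3 and 9.19 CPM in uninjured muscle, overlapping and not called (change -0.26 ± 0.28, adjusted p = 0.412), and with library size alone its change was 0.93.

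Macrophage genes had the largest median rise of the 54 lists. Of 16 core macrophage genes 15 rose and none fell, with a median fold change of 5.36. In these 15 genes all 6 day 7 libraries lay above all 6 uninjured ones. Summed over the list, day 7 libraries held 819 to 2802 CPM and uninjured libraries 54.7 to 165 CPM. Adgre1, the F4/80 antigen, had 11, 24.8 and 35 CPM at day 7, against 0.417, 1.06 and 2.08 CPM in uninjured muscle (change 4.60 ± 0.49, adjusted p = 1.20e-08). Cd68, a lysosomal protein of macrophages, had 59, 114 and 247 CPM, against 0.667, 1.85 and 3.54 CPM (change 6.15 ± 0.56, adjusted p = 1.15e-09). Ms4a7 had 31, 62.5 and 125 CPM, against 0, 0.171 and 0.229 CPM (change 8.95 ± 0.73, adjusted p = 2.64e-10).

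Lipid-handling and repair macrophage genes rose as well, in 14 of 18 members, with 1 lower and a median of 3.01. Trem2, a lipid receptor, had 35.3, 64 and 155 CPM at day 7, against 0, 0.298 and 0.458 CPM (change 8.40 ± 0.59, adjusted p = 3.91e-11). Spp1, osteopontin, had 96.5, 148 and 906 CPM, against 0.44, 1.17 and 2.84 CPM (change 7.66 ± 0.73, adjusted p = 2.53e-09). Atp6v0d2, a proton pump subunit of macrophages and osteoclasts, had 4.84, 22.3 and 40.5 CPM, against 0, 0.0401 and 0.0886 CPM, a pooled ratio of 565-fold (95% counting interval 193 to 2741). The groups were separate in all of these. The member that fell was Lpl, lipoprotein lipase, which muscle fibres also make (-1.39 ± 0.26, not called with library size alone), and the hemoglobin receptor Cd163, a mark of resident macrophages, did not pass (0.18 ± 0.34, adjusted p = 0.651). Arg1, arginase of alternatively activated macrophages, had 0.911, 1.96 and 12.5 CPM at day 7, against 0, 0.103 and 0.208 CPM, a pooled ratio of 44.5-fold (95% counting interval 21.4 to 111). Tlr13, a sensor of bacterial RNA, Ms4a14 and the leukocyte receptor gene Ly9 were among the 10 largest rises, with pooled ratios of 164-fold (95% counting interval 79.6 to 409), 412-fold (95% counting interval 224 to 859) and 299.8-fold (95% counting interval 117 to 1101).

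Other leukocyte lists also lay above uninjured muscle. Of 8 neutrophil genes 7 rose, among them S100a8, a calcium-binding alarmin, with 3.54, 6.19 and 12.1 CPM at day 7, against 0.0879, 0.209 and 0.276 CPM (change 5.04 ± 0.65, adjusted p = 2.72e-07). The defining neutrophil genes Ly6g, Ltf and Camp were too low for the test. All 10 genes of MHC class II presentation rose, with H2-Aa, a class II chain, at 103, 264 and 377 CPM, against 8.17, 16 and 21.5 CPM (change 4.03 ± 0.45, adjusted p = 2.51e-08). Of 11 dendritic cell genes 9 rose, and the chemokine receptor Xcr1 and the lineage factor Zbtb46 did not pass (0.56 ± 0.31 and -0.56 ± 0.28).

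Of 14 T cell genes 10 rose and none fell, with a median of 2.04. Cd3e, part of the T cell receptor complex, had 0.138, 0.561 and 0.873 CPM at day 7 and 0, 0.149 and 0.361 CPM in uninjured muscle, with overlap and a pooled ratio of 3.71-fold (95% counting interval 2.02 to 7.45) (adjusted p = 0.00779). Cd4 had 4.23, 6.47 and 18.4 CPM, against 0, 0.0903 and 0.528 CPM (change 5.57 ± 0.65, adjusted p = 5.44e-08), without overlap. Foxp3, the factor of regulatory T cells, did not pass at -0.29 ± 0.44 (adjusted p = 0.568). Of 11 NK and cytotoxic genes 10 rose and 1 fell, the lower member being Tbx21 (-1.01 ± 0.46, not called with library size alone). Levels were low, at 9.34 to 38.6 CPM summed over the list at day 7 and 2.10 to 4.45 CPM in uninjured muscle. In 7 of the 11 the uninjured libraries of at least 1 sex held 6 or fewer counts, so the large list median rests on few uninjured reads. Of 10 B cell genes 4 rose, a share near the 41.6% of all tested genes, and with library size alone 8 rose and 0 fell. With TMM 1 fell (Pax5, the B cell lineage factor, -1.20 ± 0.54, not called with library size alone). The risen members were Cd79b, Blnk, Sdc1 and Cd22, but the defining markers Ms4a1 and Cd79a did not pass (-0.17 ± 0.71 and 0.37 ± 0.37). With TMM the mast cell proteases and carboxypeptidase Cpa3, Cma1, Tpsb2 and Mcpt4 fell, with changes of -1.33 ± 0.47, -1.20 ± 0.45, -1.67 ± 0.48 and -1.24 ± 0.42, while Kit, which other cells also carry, rose by 2.93 ± 0.30. With library size alone none of these 4 was called, at -0.21, -0.05, -0.56 and -0.14, and the median of the mast cell and eosinophil list was -0.05, against -1.20 with TMM. The eosinophil receptors Siglecf and Ccr3 rose too, with Siglecf at 0, 0.0928 and 0.783 CPM at day 7, against 0, 0 and 0.153 CPM in uninjured muscle. Both receptors overlapped between the groups, and the eosinophil gene Epx was too low for the test.

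Signals that recruit and direct these cells rose with them. Of 20 chemokine genes 16 rose and 2 fell, with a median of 3.55. Ccl8, an attractant of monocytes and T cells, had 8.74, 24.2 and 32.5 CPM at day 7, against 0, 0.0763 and 0.176 CPM, a pooled ratio of 281-fold (95% counting interval 129 to 766). Ccl2, the main monocyte attractant, had 3.22, 5.23 and 19.7 CPM, against 0.046, 0.199 and 0.572 CPM (change 4.90 ± 0.59, adjusted p = 8.28e-08). The chemokines that fell were the eosinophil attractant Ccl11 (-1.60 ± 0.26) and Cxcl14 (-1.61 ± 0.23), of which library size alone called Ccl11, and the progenitor cell attractant Cxcl12 did not pass (-0.36 ± 0.21). Of 15 inflammatory cytokines 13 rose and 1 fell. Il1b, interleukin 1 beta, had 1.21, 2.4 and 4.69 CPM, against 0, 0.0638 and 0.561 CPM, a pooled ratio of 18.1-fold (95% counting interval 10.02 to 36.6). Its antagonist Il1rn had 2.91, 5.98 and 19 CPM, against 0, 0.044 and 2.0 CPM, a pooled ratio of 24.3-fold (95% counting interval 16.6 to 37). Il15, a cytokine that muscle itself makes, fell (-0.61 ± 0.24), and library size alone did not call it (0.52).

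Complement and interferon genes were higher too. Of 13 complement genes 12 rose and none fell. C1qb, a chain of the recognition molecule of the classical pathway, had 109.9, 218 and 371 CPM at day 7, against 3.55, 5.26 and 7.7 CPM (change 5.37 ± 0.45, adjusted p = 4.00e-10). C3, the central component, did not pass (-0.41 ± 0.37, adjusted p = 0.324), whereas its receptor C3ar1 had 18.9, 42.4 and 65.2 CPM, against 0.25, 0.462 and 0.763 CPM (change 6.50 ± 0.52, adjusted p = 2.20e-10). Of 18 interferon-stimulated genes 16 rose, with a median of 1.35. Zbp1, a nucleic acid sensor, rose most, with 6.12, 11.7 and 26.4 CPM, against 0.0382, 0.442 and 1.27 CPM (change 4.66 ± 0.52, adjusted p = 2.71e-08). Lysosomal genes gave 14 higher and 4 lower of 24 members with TMM, 21 higher and none lower with library size alone, and those that rose most were the leukocyte genes Ctss (5.95 ± 0.60) and Laptm5 (4.94 ± 0.47).

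The extracellular matrix rose across its components. Of 24 collagen chains 21 rose and none fell, with a median fold change of 3.56 with TMM and 4.81 with library size alone. Col1a1, a chain of fibrillar type I collagen, had 1869.5, 3546 and 9364 CPM at day 7, against 30.2, 62.7 and 139 CPM in uninjured muscle, with no overlap (change 5.87 ± 0.52). Col12a1, which decorates fibrils, had 18.3, 47.7 and 210.3 CPM, against 0.458, 1.45 and 3.19 CPM (change 5.32 ± 0.63, adjusted p = 6.70e-08). The basement membrane chains Col4a1 and Col4a2 rose least among those called, by 0.96 ± 0.19 and 1.02 ± 0.17, together with Col15a1 at 1.53 ± 0.17. Col7a1, Col22a1 and Col24a1 did not pass (0.08 ± 0.27, 0.11 ± 0.51 and 0.80 ± 0.47), of which Col22a1 belongs to the muscle-tendon junction.

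Enzymes that finish collagen rose in 17 of 20 cases. P4ha3, a catalytic subunit of prolyl 4-hydroxylase, had 11.3, 29.6 and 51.5 CPM at day 7, against 0, 0 and 0.177 CPM in uninjured muscle, a pooled ratio of 822-fold (95% counting interval 281 to 3988). Its paralogs behaved otherwise: P4ha1 did not pass (-0.09 ± 0.16, adjusted p = 0.622) and P4ha2 fell (-0.50 ± 0.13, adjusted p = 0.00192) with TMM but was called higher with library size alone (0.71). Of the crosslinking enzymes, Lox rose by 4.16 ± 0.48, Loxl1 by 3.34 ± 0.34, Loxl2 by 2.96 ± 0.41, Loxl3 by 4.27 ± 0.37 and Loxl4 by 1.07 ± 0.32. Adamts14, a procollagen peptidase, had 18.1, 31.8 and 76.5 CPM, against 0.703, 1.25 and 3.73 CPM (change 4.60 ± 0.35, adjusted p = 1.24e-10). The differences among the 3 hydroxylase paralogs were not tested against each other.

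All 21 matricellular and provisional matrix glycoproteins rose, with a median of 3.12. Postn, periostin, had 668, 1890.4 and 4909 CPM at day 7, against 3.62, 6.04 and 10.8 CPM in uninjured muscle (change 8.39 ± 0.66, adjusted p = 1.73e-10). Tnc, tenascin C, had 87.6, 186 and 1225 CPM, against 0.615, 2.1 and 4.16 CPM (change 7.42 ± 0.78, adjusted p = 1.17e-08). Cthrc1, a secreted protein of activated fibroblasts, had 8.0, 36.3 and 149 CPM, against 0.0802, 0.474 and 0.827 CPM (change 6.77 ± 0.69, adjusted p = 6.07e-09). No groups overlapped in these. The smallest rises in the list were in Ccn1 (0.95 ± 0.28) and Fbln2 (1.08 ± 0.21).

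Most matrix proteases and inhibitors rose. Of 23 genes 19 rose and 3 fell, namely Timp3, Timp4 and Mmp15 (-0.75 ± 0.13, but called higher with library size alone, at 0.39). Mmp12, macrophage elastase, had 5.52, 17.3 and 128 CPM at day 7, against 0, 0.0763 and 0.241 CPM, a pooled ratio of 459-fold (95% counting interval 223 to 1142). Timp1, an inhibitor of metalloproteinases, had 33.1, 53.5 and 96.7 CPM, against 0.16, 0.309 and 1.24 CPM (change 7.15 ± 0.57, adjusted p = 2.21e-10), and Timp2 rose by 1.20 ± 0.31. Timp3 and Timp4 went the other way, with changes of -1.55 ± 0.27 and -3.07 ± 0.58 (adjusted p = 1.60e-05 and 4.50e-05). Among 11 small leucine-rich proteoglycans 7 rose. Podnl1 led with 3.95, 10.4 and 22.7 CPM, against 0, 0 and 0.0763 CPM, a pooled ratio of 919.8-fold (95% counting interval 165 to 36351), which rests on very few uninjured reads. Bgn, biglycan, had 584, 882 and 2099 CPM, against 46.9, 59.6 and 79.8 CPM (change 4.10 ± 0.39), and Dcn, decorin, did not pass (-0.18 ± 0.27, adjusted p = 0.544).

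Myofibroblast and progenitor genes of the fibroblast lineage were examined as separate lists, and the difference between the lists was not tested. Of 16 myofibroblast genes 12 rose and 1 fell (the tropomyosin Tpm2, which fibres also make, -0.97 ± 0.35, not called with library size alone). Lrrc15, a surface protein of myofibroblasts, had 12.1, 32.5 and 122 CPM at day 7, against 0.0833, 0.181 and 0.458 CPM (change 7.72 ± 0.80, adjusted p = 7.76e-09). Acta2, smooth muscle actin, had 208, 534 and 745 CPM, against 52, 124 and 173 CPM (change 2.19 ± 0.37, adjusted p = 1.12e-05). Both Lrrc15 and Acta2 were separate between groups. The contractile genes Tagln, Cnn1 and Myl9, shared with vessel smooth muscle, did not pass (-0.20 ± 0.28, -0.07 ± 0.43 and 0.16 ± 0.22). Of 16 fibro-adipogenic progenitor genes 8 rose and 4 fell with TMM (median 0.54), and with library size alone 10 rose and none fell (median 1.70). The shares of all tested genes were 41.6% higher and 29.9% lower, and 73.9% and 7.07% with library size alone. Pdgfra, the receptor that defines these mesenchymal cells, had 20.4, 33 and 52.7 CPM, against 6.95, 9.58 and 13 CPM (change 1.86 ± 0.20, adjusted p = 1.55e-08). Cd34, a surface marker, rose by 1.00 ± 0.15, and the members that fell with TMM were Gsn (-1.53 ± 0.21), Smoc2 (-0.79 ± 0.18), Cxcl14 (-1.61 ± 0.23) and Hsd11b1 (-0.71 ± 0.20).

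Most tendon genes were higher at day 7, and cartilage and bone genes went both ways. Of 13 tendon genes 8 rose and none fell. Scx, scleraxis, the tendon lineage factor, had 22.3, 37.8 and 72 CPM at day 7, against 6.82, 11.9 and 21.2 CPM (change 1.69 ± 0.32, adjusted p = 4.98e-05). Tnmd, tenomodulin, had 11.2, 23.1 and 52 CPM, against 1.76, 3.75 and 10.2 CPM (change 2.34 ± 0.49, adjusted p = 1.46e-04). Both were separate between groups, although the list score of the uninjured libraries varied from 1.61 to 4.01 (mean log2 CPM of the members), against 3.37 to 4.61 at day 7. How much tendon each sample carried was not recorded in the labels, and its part in these values was not tested. The cartilage and bone list had 15 tested members, 9 of them higher and 4 lower, and with library size alone 10 rose and 2 fell. Summed over the list, day 7 libraries held less, at 49.5 to 71.0 CPM, against 89.3 to 115 CPM in uninjured muscle. The list score, which weights members equally, was higher at day 7 (0.03 to 0.65, against -0.98 to -0.55). The member that fell most was Phospho1, also named among the largest falls (-3.82 ± 0.50). Acan, aggrecan of cartilage, had 1.29, 5.91 and 12.6 CPM at day 7, against 0, 0 and 0.0919 CPM in uninjured muscle, a pooled ratio of 484-fold (95% counting interval 86.6 to 19125) with few uninjured reads. Runx2, the factor of osteoblasts that other cells also use, had 6.48, 11.5 and 24.8 CPM, against 0.352, 0.636 and 1.03 CPM (change 4.37 ± 0.37, adjusted p = 4.09e-10), while Alpl, alkaline phosphatase, fell with TMM (-1.10 ± 0.40) and was not called with library size alone (-0.07).

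In the TGF-beta pathway 11 of 21 genes rose and 3 fell with TMM (median 0.55), and with library size alone 17 rose and none fell (median 1.74). Of all tested genes 41.6% rose and 29.9% fell, and with library size alone 73.9% and 7.07%. The ligand Tgfb1 had 29.1, 46.9 and 76.4 CPM at day 7, against 7.46, 10.5 and 14.2 CPM (change 2.22 ± 0.21, adjusted p = 3.17e-09). Tgfb3 rose by 0.71 ± 0.20, and Tgfb2 fell with TMM (-0.73 ± 0.21). Ltbp2, of the latent TGF-beta binding protein family, had 10.02, 30.8 and 93 CPM, against 0, 0.044 and 0.443 CPM, a pooled ratio of 295-fold (95% counting interval 165 to 591). The day 7 and uninjured libraries were apart for Tgfb1 and Ltbp2, and overlapped for Tgfb3 and Tgfb2. The receptors Tgfbr1, Tgfbr2 and Tgfbr3 rose by 0.55 ± 0.17, 1.22 ± 0.25 and 0.63 ± 0.12, and the signal transducer Smad3 and inhibitory Smad7 fell with TMM (-1.13 ± 0.19 and -0.79 ± 0.19).

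Among myostatin's neighbours in the pathway some genes rose and others fell, in shares near those of all tested genes. Fst, follistatin, which binds myostatin and activin, had 7.21, 8.95 and 12.9 CPM at day 7, against 0.763, 1.5 and 2.45 CPM (change 2.57 ± 0.30, adjusted p = 5.99e-08). All 6 day 7 libraries exceeded all uninjured ones for Fst. The activin chains Inhba and Inhbb rose by 1.99 ± 0.40 and 1.73 ± 0.30. The receptors Acvr1b and Acvr2b and the myostatin-binding protein Wfikkn2 fell (-0.86 ± 0.23, -1.42 ± 0.37 and -2.39 ± 0.38). Over that list of 12 genes 5 rose and 4 fell, next to 41.6% higher and 29.9% lower of all tested genes. With library size alone 8 rose and 2 fell, with neither receptor called. In the BMP pathway 11 of 24 genes rose and 6 fell, next to 41.6% higher and 29.9% lower of all tested genes, and with library size alone 17 rose and 2 fell. The antagonist Chrd, chordin, had 25.6, 39.7 and 81.7 CPM, against 5.42, 8.31 and 12.2 CPM (change 2.52 ± 0.26, adjusted p = 7.96e-09), while the receptors Bmpr1a and Bmpr2 and the inhibitory Smad6 fell with TMM (-1.06 ± 0.19, -1.41 ± 0.22 and -1.71 ± 0.24), of which library size alone called Smad6.

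The insulin-like growth factors rose together with a set of their binding proteins. Igf1 had 106, 158 and 316 CPM at day 7, against 7.62, 16.9 and 35.9 CPM in uninjured muscle (change 3.51 ± 0.34, adjusted p = 3.86e-09). Igf2 had 405, 780.4 and 1503 CPM, against 37.3, 57.7 and 65.1 CPM (change 3.93 ± 0.36, adjusted p = 1.14e-09). Neither Igf1 nor Igf2 had overlapping groups. Of 13 genes of the pathway 9 rose and 1 fell (Igf2bp3, -1.04 ± 0.22, not called with library size alone). Their receptor Igf1r did not pass (0.23 ± 0.13, adjusted p = 0.117). Igfbp2 had 3.28, 5.31 and 10.8 CPM, against 0, 0 and 0.167 CPM, a pooled ratio of 144-fold (95% counting interval 49.1 to 699.8), and Igfbp4 rose by 2.80 ± 0.28, whereas Igfbp5 and Igfbp6 did not pass (-0.01 ± 0.24 and -0.39 ± 0.24).

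In the Wnt pathway a secreted modulator rose most. Of 24 genes 15 rose and 3 fell. Sfrp2, a secreted Wnt binding protein, had 17.8, 54.5 and 83.5 CPM at day 7, against 0, 0.194 and 0.528 CPM (change 7.90 ± 0.73, adjusted p = 1.49e-09), and Sfrp1 rose by 3.58 ± 0.40. The ligand Wnt4 had 4.06, 10.9 and 36.1 CPM, against 83.6, 126 and 163 CPM, with every day 7 library below every uninjured one (change -3.07 ± 0.50, adjusted p = 7.38e-06). Sfrp5 and Wnt9a also fell with TMM (-1.89 ± 0.59 and -0.62 ± 0.14), but with library size alone Sfrp5 was not called and Wnt9a was called higher (0.55). Axin2, a target of the pathway, rose by 0.74 ± 0.23 (adjusted p = 0.00658). Of 16 Notch genes 7 rose and none fell, a risen share near the 41.6% of all tested genes. With library size alone 16 rose, where 73.9% of all genes did. The receptor Notch2 had 31.6, 58.9 and 84.7 CPM, against 9.83, 10.2 and 18.5 CPM (change 2.28 ± 0.26, adjusted p = 3.99e-08), the target Heyl, which satellite cells express, rose by 1.93 ± 0.20, and the targets Hes1 and Hey1 did not pass (-0.07 ± 0.23 and -0.02 ± 0.16).

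Vessel genes stood near or below the background. Of 20 endothelial genes 2 rose and 7 fell, with a median of -0.25 with TMM and 0.90 with library size alone, where 14 rose and 1 fell. Pecam1, an endothelial junction protein, had 73.1, 108 and 155 CPM at day 7 and 103, 141 and 153 CPM in uninjured muscle, with overlap (change -0.32 ± 0.15, adjusted p = 0.0551), and library size alone put the change at 0.81. Aqp1, a water channel of capillaries, had 32.8, 176 and 405 CPM, against 777, 929.8 and 1071 CPM (change -2.19 ± 0.44, adjusted p = 1.07e-04). Flt1, a receptor of vascular endothelial growth factor, had 25.1, 49 and 85.1 CPM, against 128, 148 and 169 CPM (change -1.52 ± 0.26, adjusted p = 1.33e-05). The day 7 libraries were all below the uninjured ones in both Aqp1 and Flt1, although library size alone did not call Flt1 (-0.45). The members that rose were Apln, a peptide of sprouting tip cells (1.28 ± 0.28), and Plvap (0.80 ± 0.22). Vegfa, the main angiogenic factor, did not pass (-0.77 ± 0.46, adjusted p = 0.134), Vegfb fell (-1.97 ± 0.25), and placental growth factor Pgf had 4.84, 7.23 and 17.4 CPM, against 0.84, 1.44 and 3.23 CPM (change 2.39 ± 0.30, adjusted p = 1.64e-07). Of 18 angiogenic factors and receptors 7 rose and 4 fell, next to 41.6% higher and 29.9% lower of all tested genes. With library size alone 14 of them rose and 1 fell. Among 14 pericyte and smooth muscle genes 5 rose, including Cspg4 (1.59 ± 0.17), and 6 fell, including Rgs5 (-0.80 ± 0.22), whereas with library size alone 8 rose and 1 fell, without Rgs5. Over all tested genes the shares were 41.6% higher and 29.9% lower, and 73.9% and 7.07% with library size alone.

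Of 19 coagulation and plasminogen genes 15 rose and 1 fell (Serpine2, a thrombin inhibitor, -1.66 ± 0.27). Plaur, the urokinase receptor, had 6.24, 10.2 and 25.4 CPM at day 7, against 0.791, 1.29 and 2.26 CPM (change 3.04 ± 0.35, adjusted p = 4.46e-08), and Tfpi2, an inhibitor of the tissue factor pathway family, had 2.62, 4.2 and 17.1 CPM, against 0.0833, 0.188 and 0.46 CPM (change 4.61 ± 0.53, adjusted p = 4.91e-08). F10, clotting factor X, had 1.04, 2.05 and 2.97 CPM, against 0, 0.0818 and 0.382 CPM. In the secretory pathway 6 of 20 genes rose and 7 fell with TMM (median 0.08), and with library size alone 15 rose and 2 fell (median 1.29). The shares of all tested genes were 41.6% higher and 29.9% lower, and 73.9% and 7.07% with library size alone. Creb3l1, a factor that drives collagen secretion, had 20.7, 44.9 and 77.9 CPM, against 2.2, 3.27 and 7.89 CPM (change 3.53 ± 0.35, adjusted p = 3.78e-09), and the stress chaperone Hspa5 fell with TMM (-0.57 ± 0.23) but was called higher with library size alone (0.63). Of 17 heat shock genes 7 fell and 1 rose (Dnajb1, 0.92 ± 0.19), with a median of -0.34 that turned to 0.79 with library size alone, where 10 rose and 4 fell. Of 18 immediate early genes 11 rose and 2 fell (Nr4a1, -1.43 ± 0.37, and Dusp1, -0.86 ± 0.28), neither of which library size alone called. Fosl1, an AP-1 subunit, had 0.0466, 0.108 and 0.841 CPM at day 7, against 0, 0 and 0.16 CPM (adjusted p = 0.0063).

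The 6 day 7 libraries were far from alike. Their fast fibre score, the mean log2 CPM of the list, was 11.79, 10.51 and 12.11 in males and 12.28, 10.72 and 9.37 in females, all below the uninjured range of 13.24 to 13.88. The core macrophage score in the same order was 5.16, 6.28 and 5.46 in males and 4.80, 6.36 and 5.76 in females, all above the uninjured range of -0.12 to 1.17. Female libraries 2 and 3 and male library 2 had the lowest fast fibre scores and the 3 highest macrophage scores. The developmental fibre score varied less, at 7.71 to 8.74 at day 7, against 3.06 to 4.58 in uninjured muscle. How much of the defect each sample held is not in the labels, and its part in this spread was not tested.

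Female day 7 library 3 had the highest Adipoq level and the highest adipocyte score of the 12 libraries. Adipoq, adiponectin, had 0.828, 0.232 and 0.40 CPM in the day 7 males and 0.208, 0.0932 and 10.6 CPM in the day 7 females, against 0.443, 0.0802 and 0.0763 and 0.551, 0.333 and 1.58 CPM in uninjured males and females. Over the groups Adipoq was not called (change 1.68 ± 0.94, adjusted p = 0.111). Of 11 adipocyte genes 2 rose (Acvr1c and Pck1) and 3 fell (Plin4, Fabp4 and Lipe) with TMM. With library size alone 6 rose and 1 fell, and the changes of Fabp4 and Lipe were positive. The list median of 1.04 with TMM turned to -0.76 without female day 7 library 3. The members did not all follow it: Fabp4, a fatty acid binding protein of fat and vessels, had 305, 142 and 235 CPM in the day 7 males and 321, 151 and 119 CPM in the day 7 females, so that library had the lowest Fabp4 of the 6. Plin4 there stood at 25.5 CPM, below the day 7 median. Of 4 tested erythroid genes none rose and 1 fell (Alas2, -2.12 ± 0.50), and the globins of that list were at 0 and not tested. Of 4 tested epidermis genes 1 rose (Trp63, 0.94 ± 0.24). Plin4, a lipid droplet coat that muscle also makes, had 18.8, 70.4 and 189.6 CPM at day 7, against 303, 411 and 584 CPM (change -2.30 ± 0.54, adjusted p = 5.61e-04).

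**Figure D3:**
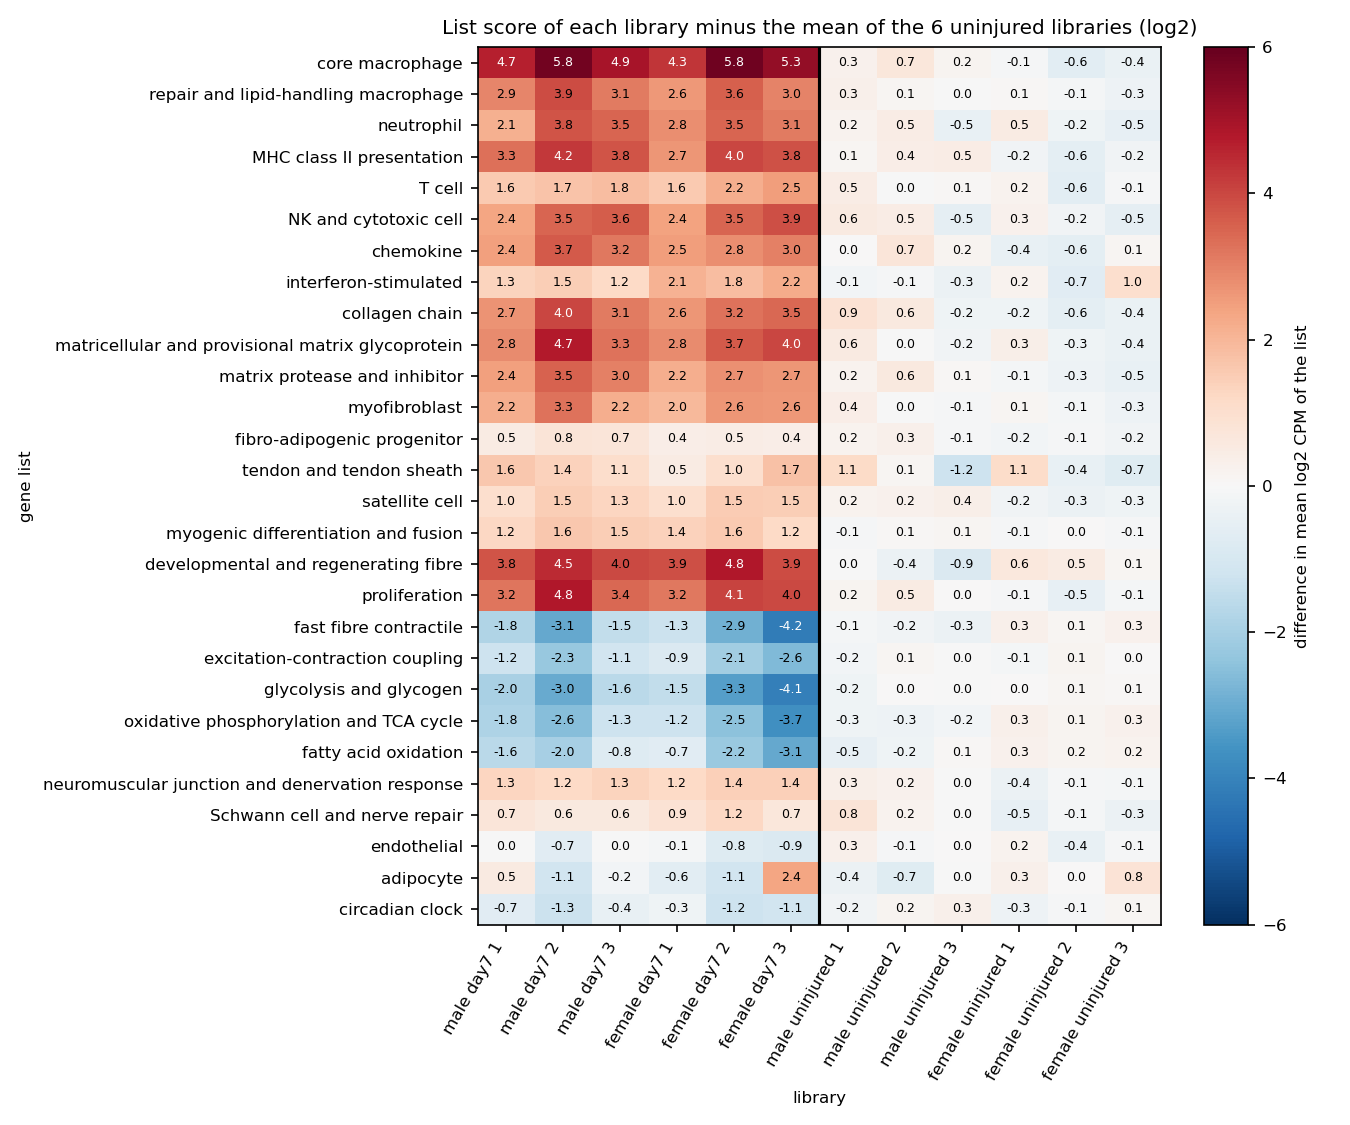
Score of 28 gene lists in each library, the mean log2 CPM of the list minus its mean over the 6 uninjured libraries, with the 6 day 7 libraries at the left of the black line and the 6 uninjured libraries at the right. Macrophage, matrix, developmental fibre and proliferation lists are positive and fast fibre, calcium release and energy metabolism lists negative in all 6 day 7 libraries, while the adipocyte list is high in female day 7 library 3.

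Set against the earlier time point, day 7 had 3174 genes higher than day 4 (18.5%) and 2860 lower (16.7%), together 35.2%, a comparison that uses no uninjured library. Several inflammation and division genes stood below their day 4 level. Of 22 proliferation genes 21 were lower at day 7 and none higher (median change -1.11), and of 24 lysosomal genes 20 were lower and 1 higher (median -1.10). Of 16 core macrophage genes 10 were lower and none higher (median -1.17), against a median of 0.05 for all genes. With library size alone 11.8% of all genes were higher and 20.1% lower than at day 4. Arg1 had 0.911, 1.96 and 12.5 CPM at day 7, against 7.43, 19.4 and 107 CPM at day 4 (change -3.39 ± 0.54, adjusted p = 1.76e-04). Chil3, a chitinase-like protein of activated macrophages with a close paralog, had 0, 0.747 and 1.35 CPM, against 13.7, 19.8 and 34.5 CPM (change -4.91 ± 0.62, adjusted p = 3.65e-05). The neuropeptide Gal and the protease inhibitor Slpi were among the 5 largest decreases of genes at a mean of at least 5 CPM, at -4.39 ± 0.46 and -3.52 ± 0.61.

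Fibre genes were among those above day 4. Of the fast fibre contractile list 9 of 20 genes were higher at day 7 and none lower (median change 1.13), and of the excitation-contraction coupling list 9 of 20 (median 0.80). The fast fibre scores overlapped, at 9.37 to 12.28 at day 7 and 7.79 to 10.73 at day 4. Female day 4 library 2 held the 7.79, and the other day 4 libraries lay at 10.33 to 10.73. Without that library, 2002 genes in all were higher than at day 4, where the full set gave 3174. Pvalb had 1183, 6062 and 13371 CPM at day 7, against 66.7, 1953 and 3573 CPM at day 4 (change 1.93 ± 0.57, adjusted p = 0.0114). Sln, sarcolipin, had 184, 242 and 659 CPM, against 17, 78.4 and 136 CPM (change 2.08 ± 0.44, adjusted p = 0.00121). The satellite cell regulators went the other way, with Pax7 at 1.98, 3.29 and 5.66 CPM at day 7, against 7.65, 10.6 and 18 CPM at day 4 (change -1.65 ± 0.31, adjusted p = 5.65e-04), and Myod1 at 44.9, 56.7 and 79.9 CPM, against 107, 120.3 and 201 CPM (change -1.16 ± 0.25, adjusted p = 0.00122). Collagen chains gave 4 higher and 0 lower of 24, and Col1a1 was not called (0.11 ± 0.42, adjusted p = 0.862).

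With predicted genes passed over, the 5 largest increases over day 4 at a mean of at least 5 CPM were in Adamts16, Meg3, Erdr1, Mdk and Chrne, the receptor subunit described with the neuromuscular junction. Adamts16, a matrix protease, had 4.16, 8.7 and 18.3 CPM at day 7, against 0.39, 1.26 and 1.52 CPM at day 4 (change 3.08 ± 0.37, adjusted p = 1.87e-05). Meg3, an imprinted long noncoding RNA, had 692, 1688 and 4243 CPM, against 204, 255 and 419.6 CPM (change 2.94 ± 0.39, adjusted p = 4.19e-05). Mdk, the growth factor midkine, had 29.97, 70.5 and 159.6 CPM, against 11, 14.4 and 20.1 CPM (change 2.37 ± 0.36, adjusted p = 1.30e-04). Dlk1, an imprinted surface protein of regenerating muscle from the same cluster as Meg3, was higher by 1.83 ± 0.44 (adjusted p = 0.00313). Erdr1 was higher by 2.67 ± 0.58, but its copies at the ends of the sex chromosomes make its count uncertain.

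Few genes differed between day 7 and day 11. In edgeR's test 3 genes were higher at day 7 (0.0175%) and 7 lower (0.0408%), together 0.0584%, with 1306 at an unadjusted p under 0.05, and DESeq2 gave 46 higher and 82 lower. The 10 edgeR calls were Iqsec3, Fgfr4 and Ptprn (higher) and Th, Gm12185, Tmod2, Cd34, Aldh3a1, Tgfbr3 and Atf5 (lower). Fgfr4 had 29.1, 42 and 90.8 CPM at day 7, against 16.9, 20.6 and 28.9 CPM at day 11 (change 1.19 ± 0.21, adjusted p = 0.0237). Cd34 had 91.8, 127 and 160.2 CPM, against 195, 215 and 242 CPM (change -0.82 ± 0.15, adjusted p = 0.0361). Tgfbr3, a co-receptor for TGF-beta, had 21.8, 28.1 and 32.4 CPM, against 35.7, 43 and 50.3 CPM (change -0.63 ± 0.12, adjusted p = 0.0499). The sex-linked transcripts of 1 day 11 library went against its label, and without it the calls were 7 higher and 26 lower and Ptprn no longer passed (adjusted p = 0.0671). A small number of calls does not show that the days were alike.

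Day 15 was farther off, with 1653 genes higher at day 7 (9.65%) and 1116 lower (6.51%), together 16.2%. Myh3, embryonic myosin, had 608, 887 and 2013 CPM at day 7, against 92.3, 114 and 319 CPM at day 15 (change 2.92 ± 0.49, adjusted p = 2.29e-04). Myog had 171, 303 and 595 CPM, against 78.6, 109 and 171 CPM (change 1.5 ± 0.33, adjusted p = 0.00256). Chrng had 33.9, 64.1 and 134 CPM, against 16.5, 20.3 and 27.2 CPM (change 1.80 ± 0.28, adjusted p = 1.18e-04). The lowest day 7 library lay above the highest of day 15 for Myh3 and Chrng. Osteopontin Spp1 had 96.5, 148 and 906 CPM, against 9.25, 23.3 and 36.3 CPM (change 3.56 ± 0.59, adjusted p = 2.17e-04). Genes that did not pass against day 15 were Adgre1 of macrophages (0.34 ± 0.40, adjusted p = 0.623), Col1a1 (0.62 ± 0.42, adjusted p = 0.344), Myh4 (-0.32 ± 0.46, adjusted p = 0.701) and Mstn (-0.26 ± 0.43, adjusted p = 0.737). The 4 injured time points share no library with each other.

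**Figure D4:**
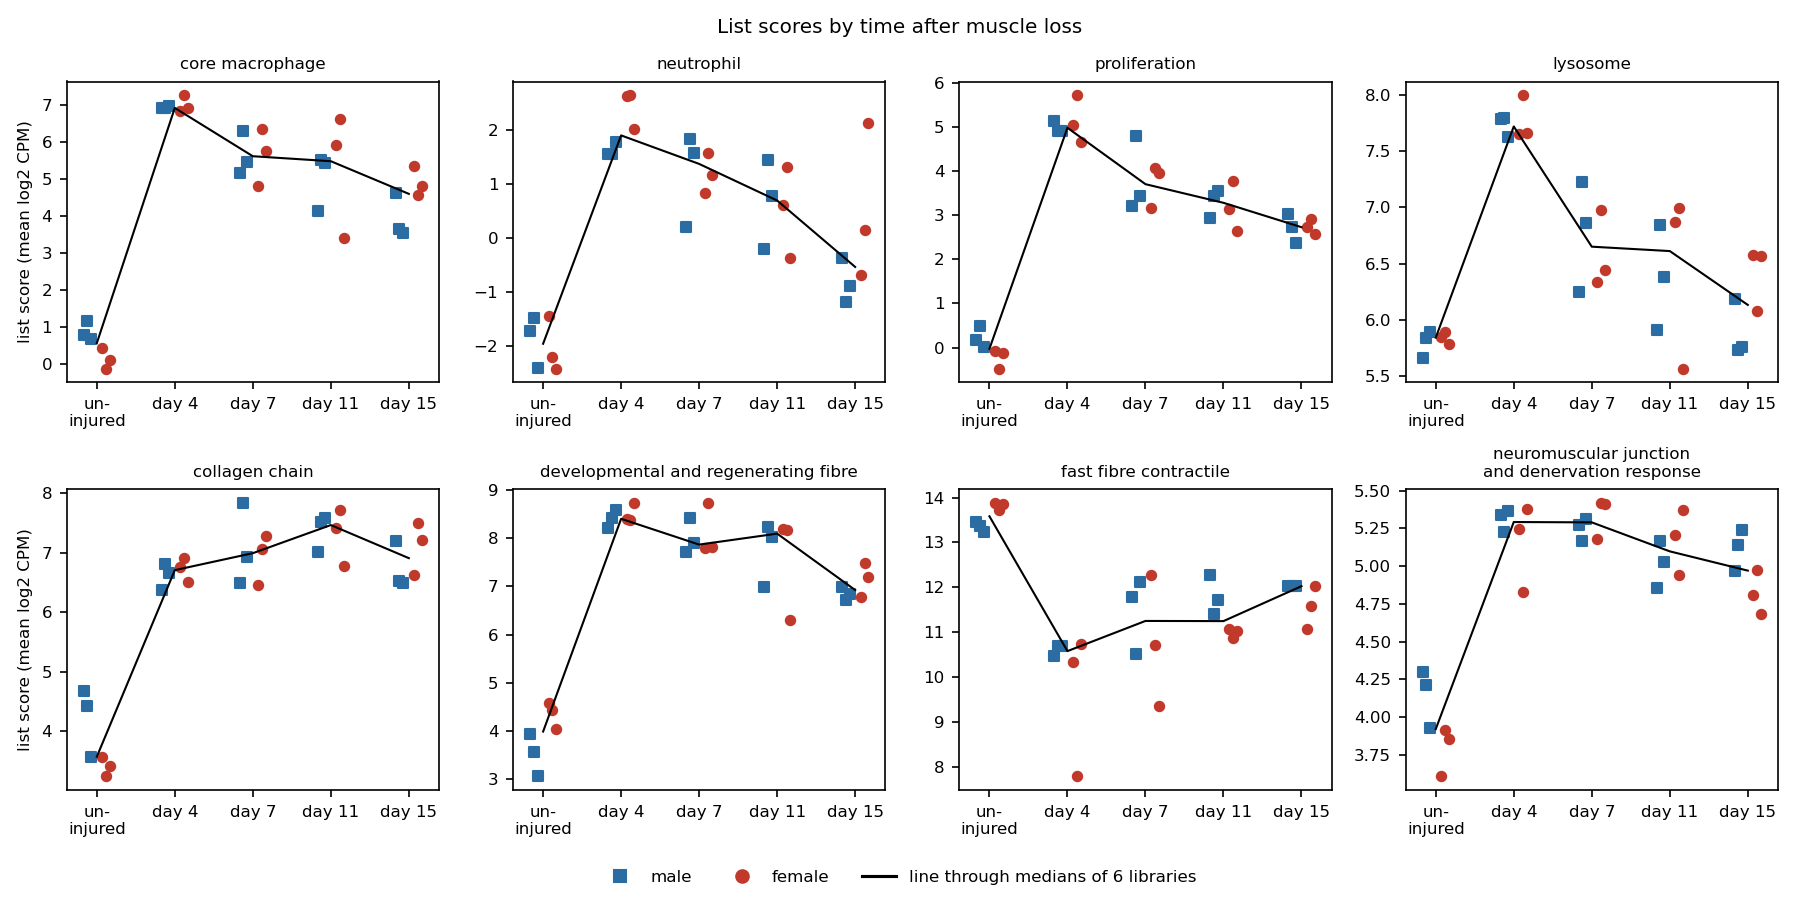
List scores (mean log2 CPM) of 8 gene lists in all 30 libraries by time, uninjured first and then day 4 to day 15, males as squares, females as circles, with a line through the medians of 6 libraries. The median proliferation and lysosome scores are lower at day 7 than at day 4, with libraries of the days overlapping for proliferation but not for lysosome. The fast fibre score at day 7 spans 9.37 to 12.28, below the uninjured range of 13.24 to 13.88.

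No gene was called highest at day 7 against all 4 other conditions, and none lowest, in edgeR's test. At an unadjusted p under 0.05 edgeR gave 17 highest and 5 lowest genes, and DESeq2 with adjusted p gave 3 highest (Kremen2, Zan and Gm30712) and 0 lowest, with 24 and 9 at an unadjusted p. Halving the counts, or leaving out any of 4 libraries in turn, put Kremen2, a co-receptor that restrains Wnt signalling, past the threshold in edgeR as well.

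Within sexes, 5049 genes rose (29.5%) and 3755 fell (21.9%) in males, together 51.4%. In females 6464 rose (37.7%) and 4556 fell (26.6%), together 64.3%. The response itself differed between the sexes in 21 genes (0.123%), with 18 more positive in females (0.105%) and 3 more positive in males (0.0175%), and 1704 genes had an unadjusted p under 0.05. No member of the 54 gene lists was among the 21. This count was unstable: DESeq2 gave 57, leaving out female day 7 library 3 gave 2, and leaving out female day 7 library 1 gave 204. A fit of only the day 7 and uninjured libraries called none, so the 21 calls depend on the other days being in the fit.

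B3gat1, a glucuronyltransferase, had 0.828, 2.07 and 1.22 CPM in day 7 males and 0.753, 0.882 and 0.572 CPM in uninjured males. In females it had 2.5, 1.89 and 3.56 CPM at day 7, and all 3 uninjured libraries were at 0 (adjusted p of the difference in response = 0.00204). Bco2, a carotenoid-cleaving oxygenase, had 1.66, 1.36 and 0.934 CPM in day 7 males, against 0.443, 0.722 and 0.458 CPM in uninjured males. Females had 1.2, 2.31 and 2.56 CPM at day 7 and 0 in uninjured muscle (adjusted p = 0.00707). In both genes the sexes overlapped at day 7 and were apart in uninjured muscle. Pbx4, a homeodomain factor, had 0.874, 0.682 and 0.489 CPM in day 7 males, against 0.266, 0.241 and 0.229 CPM in uninjured males, and 0.676, 0.793 and 1.62 CPM in day 7 females, against 0 in uninjured females (adjusted p = 0.014). These 3 genes lack any uninjured female read, so their fitted difference depends on the prior count.

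Gramd1c, a sterol transfer protein, had 1.61, 2.86 and 1.25 CPM in day 7 males, against 1.24, 0.882 and 1.07 CPM in uninjured males, and 2.68, 3.61 and 5.18 CPM in day 7 females, against 0.184, 0.25 and 0.352 CPM in uninjured females. Its response was 3.85 ± 0.40 in females and 0.85 ± 0.34 in males (adjusted p of the difference = 0.014). Cdk19, a kinase of the mediator complex, had 19.3, 18 and 19.4 CPM in day 7 males, against 34.4, 52.6 and 80.4 CPM in uninjured males, and 18.2, 21.4 and 20.6 CPM in day 7 females, against 17.9, 15.8 and 18.6 CPM in uninjured females. It fell in males (-1.56 ± 0.21) and was not called in females (0.20 ± 0.20), and the difference passed (adjusted p = 0.0125). At day 7 the sexes overlapped in Cdk19, and in uninjured muscle they did not.

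Osbp2, an oxysterol-binding protein, had 1.1, 1.39 and 1.36 CPM in day 7 males, against 0.975, 0.401 and 0.458 CPM in uninjured males, and 0.833, 0.443 and 0.515 CPM in day 7 females, against 2.57, 2.25 and 1.58 CPM in uninjured females. The sexes were apart in both conditions, in opposite order (adjusted p of the difference = 0.014). Cacna2d2, an accessory subunit of calcium channels, had 2.48, 1.57 and 1.69 CPM in day 7 males, against 0.354, 0.361 and 0.229 CPM in uninjured males, and 1.38, 1.49 and 1.25 CPM in day 7 females, against 1.19, 1.33 and 1.49 CPM in uninjured females (adjusted p = 0.0444). Hectd2os lies antisense to Hectd2, and with the strand setting unknown their reads cannot be told apart. It had 2.12, 2.54 and 5.03 CPM in day 7 males, against 0.886, 1.36 and 1.22 CPM in uninjured males, and 2.26, 1.54 and 1.26 CPM in day 7 females, against 3.68, 3.08 and 2.86 CPM in uninjured females (adjusted p = 0.0455).

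**Figure D5:**
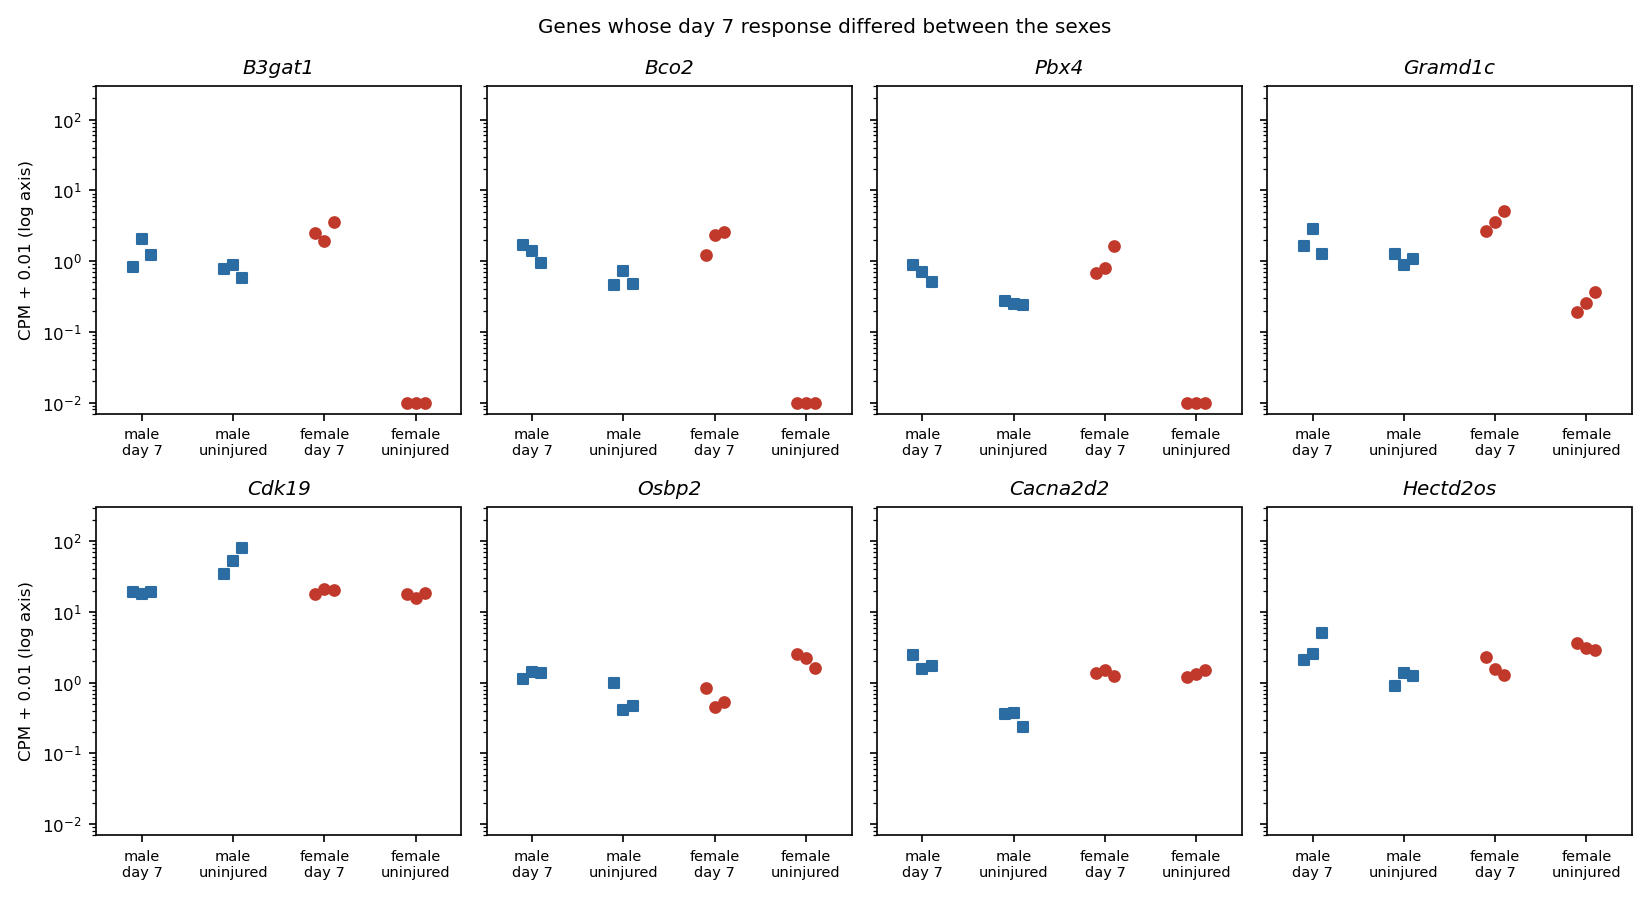
Levels of the 8 named genes whose day 7 response differed between the sexes, as CPM + 0.01 on a log axis, with day 7 left of uninjured within males (squares) and within females (circles) and each point a library. B3gat1, Bco2 and Pbx4 are at 0 in all 3 uninjured females.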

How the data were processed

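Gene counts were deposited for each of the 30 libraries. Per the submitters' processing notes, reads were aligned with STAR to mm39 and edgeR was used, while versions, the counting program, the annotation and the strand setting are not stated in the labels or headers. In counts of 1 to 20, even values made up 65.5 to 77.5% per library, so both reads of a pair may have been counted, and halved counts were tried. Counts as deposited were tested with edgeR 4.0.16 (R 4.3.3): 10 group means, TMM scaling, 17136 of 26264 genes kept by its filter on low counts, quasi-likelihood tests with the sexes weighted equally, and Benjamini-Hochberg adjustment over all tested genes. Standard errors were derived from the fold change and its F statistic. A call is an adjusted p under 0.05. For most genes with 6 or fewer counts in the uninjured libraries of either sex, the pooled ratio is given with a 95% interval for counting error. For one at 0 a lower bound is given. For F10, Fosl1, Siglecf and some others only levels are given, and their rises rest on few uninjured reads. Counting error is the only error in such intervals.

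List scores are mean log2 CPM with a prior count of 2. The 54 lists and the members were chosen with earlier results of these data known. Genes were named by size of change, with predicted genes passed over: the 10 largest rises and falls without overlap at a mean of 5 CPM, the 3 most changed called members of each list at a mean of 1 CPM, a fixed set of marker genes, the 5 clearest sex differences per direction, and the 5 largest changes per direction against day 4 and day 11 at a mean of 5 CPM. Other list members are named to describe their group, chosen after their values were seen. The main test was tried on simulated data. DESeq2 1.42.0, other scalings and filters, a 2-fold threshold, halved counts, omission of single libraries and a replicate block served as alternatives. Promoter sequences came from RefSeq on GRCm38.p6 and were matched by symbol.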

Additional observations from a re-analysis of the deposited data

Results flagged for a closer look

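In 5 of 170 tests of a list score or a marker gene over the 6 libraries of a condition, 1 library stood far from the others, where chance marks about 1 in 20. The dendritic cell score was 1.562 in female day 7 library 1, against 2.365 to 2.824 in the other 5 day 7 libraries. The IGF pathway score was 4.944 in male uninjured library 1, against 4.752 to 4.817 in the other uninjured libraries. The heat shock score was 5.433 in female day 7 library 3, the library with the high Adipoq, against 6.245 to 6.645. The coagulation and plasminogen score was 4.461 in male day 7 library 2, against 3.293 to 3.54. Cd3e stood at -2.071 on the log2(CPM + 0.1) scale in male day 7 library 1, against -0.7506 to -0.03918 in the other day 7 libraries.

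The day 7 response differed between the sexes, female minus male on the log2 scale, by 8.801 in B3gat1, 8.07 in Bco2, 6.926 in Pbx4, 3.001 in Gramd1c and 1.767 in Cdk19, and by -2.926 in Osbp2, -2.554 in Cacna2d2 and -2.41 in Hectd2os. Each was marked by its edgeR test of the difference, with adjusted p between 0.00204 and 0.0455. The first 3 values depend on the prior count, since the uninjured females were at 0.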

How the results depend on the processing

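Most values kept their direction and their side of the threshold. Over all alternatives, the genes named by the rules above gave 4047 values on the same side, 120 no longer past it, 7 newly past it and 4 of opposite sign. For genes higher, day 7 against uninjured, library size alone gave 12665 and a 2-fold threshold 4188. For genes lower, day 7 against uninjured, they gave 1212 and 1719. Library size alone also turned the list medians of atrophy (0.50), heat shock (0.79), clock (0.18), polyamine (0.12), endothelial (0.90) and pericyte genes (0.76). Of the genes named by those rules it turned Fabp4 (0.28), Lipe (0.50), Ngfr (0.93) and Pecam1 (0.81). Other list members turned as well. Among them were Cdh15, P4ha2, Mmp15, Wnt9a and Hspa5, called lower with TMM and higher with library size alone. The mast cell and eosinophil median was 0.63 with no filter on low counts, and the adipocyte median ran from -0.76 (without female day 7 replicate 3) to 1.48 when 1 library was left out. Against day 4, library size alone gave 2019 genes higher, and the 2-fold threshold 48 higher and 31 lower. Against day 11, genes higher numbered 0 with library size alone, with the 2-fold threshold and with only the groups compared, 5 with halved counts and 46 with DESeq2. Genes lower were 0 with the 2-fold threshold, 1 with only the groups compared and 82 with DESeq2. Sex differences numbered 2, 0, 9 and 57 with the 2-fold threshold, only the groups compared, halved counts and DESeq2. Genes highest at day 7 were 1 with halved counts and 3 with DESeq2.

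Leaving out each library in turn gave 6450 (without female day 7 replicate 3) to 7192 for genes higher, day 7 against uninjured, and 4877 to 5357 for genes lower, day 7 against uninjured. Sex differences ranged from 2 (without female day 7 replicate 3) to 204 (without female day 7 replicate 1), with 3 without female uninjured replicate 1, 5 without female day 7 replicate 2, 6 without male day 7 replicate 3, and 9 without female uninjured replicate 3. The count of genes higher, day 7 against day 4, was 2002 (without female day 4 replicate 2) to 3212, with 2068 without male day 7 replicate 1, and that of genes lower, day 7 against day 4, was 1930 (without male day 7 replicate 1) to 3585. Against day 11 they were 0 to 16 higher and 3 to 26 lower, and 0 to 1 gene was highest or lowest at day 7. Residuals of same-numbered day 7 and uninjured libraries correlated at 0.219, 0.119 and 0.195 in males and -0.147, -0.0917 and 0.0377 in females. The 3 male pairs, 3 of the 6 checked, were closest to their own number, a hint of pairing from the data that the labels do not give, so the numbers were not taken as pairs. With a replicate block 7019 genes rose and 5123 fell, and for Pecam1, day 7 against uninjured, the test passed (adjusted p = 0.0485 in edgeR, 0.0343 in DESeq2 without the block). The cause of these shifts was not tested.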
